A study of Mus musculus with 6 samples.

Results

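The clustered protocadherin genes lie in tandem on mouse chromosome 18, in an α, a β and a γ cluster. The members were every gene of the mm9 annotation (GENCODE M1) on chromosome 18 whose symbol is Pcdha, Pcdhb or Pcdhg followed by a number, or by a letter a, b or c and a number. This gave 25 of 37310 annotated genes, and 0 genes elsewhere in the genome had such a symbol. They ran from chr18:37089939-38001527, all on the forward strand, and peaks were collected over that stretch and 200 kb on either side, a region of 1311.6 kb.

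Chromatin accessibility was measured by ATAC-seq in 3 cultured mouse cell lines, named by the paper for their level of Pax6: Pax6-HIGH (β-TC3, an insulinoma line), Pax6-ON (MV+, from lens epithelia) and Pax6-OFF (RAG, from a renal adenocarcinoma). In this assay the Tn5 transposase cuts open DNA and tags it, and fragments pile up where chromatin is accessible. All cells were grown untreated in the same medium, and 50000 nuclei went into each reaction, released with 0.2% NP40 buffer for MV+ and 0.1% for the other lines, and the effects of buffer and cell line cannot be told apart. The 2 replicates of each line had been pooled by the authors in a single peak call, so no value below has a replicate error, no test was made, and every count describes 1 call per line.

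Clustered protocadherins are cell surface adhesion proteins, known above all from neurons, where each cell expresses a small set of them and thereby acquires a surface identity. In the α and γ clusters each variable exon has its own promoter, and the chosen first exon is spliced to constant exons shared by the whole cluster, whereas each β gene is a single exon. The C-type genes (Pcdhac1, Pcdhac2, Pcdhgc3, Pcdhgc4 and Pcdhgc5) sit at the ends of the α and γ arrays and are known to be expressed more evenly than the others. Most variable promoters carry a short conserved element with the core CGCT, and binding of CTCF and cohesin, DNA methylation and Smchd1 are known to act on the clusters.

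The annotation joined transcripts of many α and γ genes under 1 symbol, so that it held 2 α genes (Pcdha11 and Pcdha3), 22 β genes (Pcdhb1 to Pcdhb22, of which Pcdhb20 is listed as a pseudogene) and 1 γ gene (Pcdhgc5). Beneath these symbols lay 47 distinct transcript starts, 11 α, 26 β and 10 γ. A start was named after the gene that lies at the same distance from Pcdhb1 in the RefSeq table of a later assembly, with a tolerance of 300 bp. This named 45 of 47 starts, 34 of them to the base. The first start of each of the 22 β genes fell on its own symbol, for Pcdhb1 by construction. A further start of Pcdhb6 was left without a name. The named starts covered 41 of the 58 clustered protocadherins of RefSeq, and the other genes have no start of their own in the annotation used. Of the 47 starts, 15 begin at the coding start, so the true start of those transcripts lies upstream of the position used. They are all 11 α starts, Pcdhb1, the first start of Pcdhb6 and both starts of Pcdhb8.

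Calls rested on 100254099 fragments and 28024 peaks in β-TC3, 130955836 fragments and 9821 peaks in MV+, and 102223606 fragments and 14022 peaks in RAG. Each peak has a pileup, the number of fragments over its summit without scaling for depth, and a fold enrichment, the ratio of that pileup to the background of the same library. The lowest pileup of any peak was 25, 30 and 25 fragments, in the same order, so a protocadherin start without a peak may still have been open below that height. Of the markers of the source tissues, β-TC3 had a peak at 4 of 8 insulinoma gene starts (Chga, Isl1, Neurod1 and Nkx6-1, but not Ins1, Ins2, Pdx1 or Insm1), MV+ at 2 of 6 lens gene starts (Maf and Prox1, but not Cryab, Foxe3, Pitx3 or Six3) and RAG at 3 of 6 kidney gene starts (Cdh16, Emx2 and Pax2, but not, for example, Lhx1 or Pax8). Defining markers of every line thus partly lacked a peak within 1 kb of their start. With a window of 2 kb the count on the line's own list became 6 in β-TC3. It stayed at 2 in MV+ and 3 in RAG. The lens list did not set MV+ apart, since 2 of 6 starts had a peak in each line, Maf in all 3, Prox1 also in β-TC3, and Cryab in RAG. MV+ also had peaks at Isl1 and Nkx6-1 of the insulinoma list and at Emx2 of the kidney list.

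No clustered protocadherin had a peak within 1 kb of its annotated gene start in any line. The count was 0 of 25 in β-TC3, where 43.7% of 22350 protein-coding genes had such a peak. It was 0 of 25 in MV+ against 20.0%, and 0 of 25 in RAG against 34.0%. When every annotated transcript start was used, 1 of 25 genes, Pcdhgc5, had a peak in each line, against a background of 46.5% in β-TC3, 21.4% in MV+ and 36.1% in RAG. Start by start, a peak lay within 1 kb of 2 of 47 starts in β-TC3, 1 of 47 in MV+ and 1 of 47 in RAG. All of these were C-type starts of the γ cluster.

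**Figure D1:**
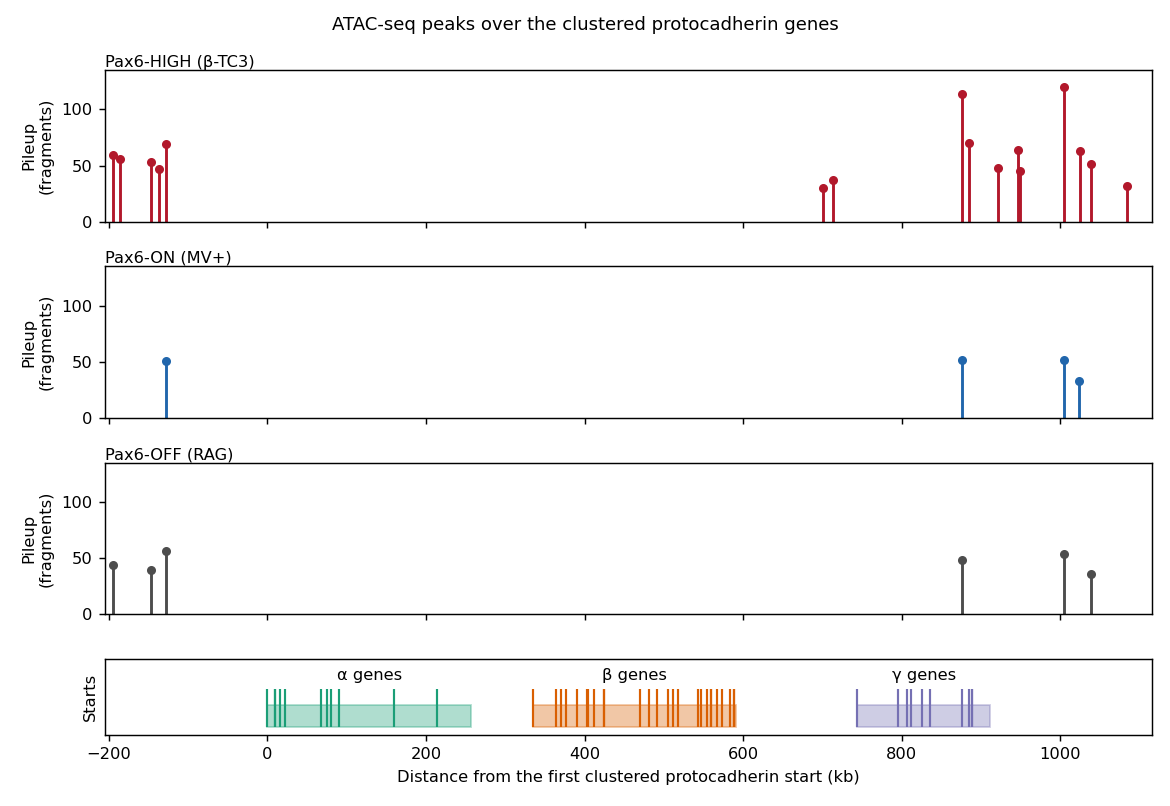
Peaks of β-TC3, MV+ and RAG cells over the clustered protocadherins, plotted by summit position in kb from the first start (horizontal axis) and pileup in fragments (vertical axis), with annotated starts as ticks in the lowest panel. The α and β clusters hold 0 peaks in every line, and 1 site near the end of the γ cluster carries a peak in all 3 lines.

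The α cluster (chr18:37089939-37347311, 257.4 kb) held 0 peaks in β-TC3, 0 in MV+ and 0 in RAG. The 77.3 kb between the α and β clusters and the β cluster itself (chr18:37424652-37681073, 256.4 kb) held 0 peaks in each line as well. The stretch from the first α start to the end of the last β gene was therefore free of peaks over 591.1 kb in all 3 lines. This covers Pcdhac1 and Pcdhac2, the C-type genes of the α cluster.

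The nearest peak to an α start lay upstream of the cluster, at the gene of a vault RNA, the small RNA of the vault particle. From Pcdha1, the first start, it was 128.3 kb away in β-TC3 and 128.2 kb in MV+ and in RAG. From Pcdhac2, the last α start, it was 342 kb away in β-TC3 and 341.9 kb in the other lines. The α cluster thus had the same nearest peak in all lines.

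The β genes had different distances by line. In β-TC3 the nearest peak lay between 112.2 kb (Pcdhb22) and 365.5 kb (Pcdhb1) from the gene start, with a median of 202 kb. In MV+ and RAG it lay between 287.8 kb (Pcdhb22) and 498.8 kb (Pcdhb3), with a median of 377.7 kb in both. The nearest peak in β-TC3 was a weak one between the β and γ clusters, and a further β-TC3 peak, at Taf7, lay just beyond it. Neither was called in MV+ or RAG, and both are described below.

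In each line the α and β genes lay inside a single stretch without peaks. In β-TC3 it ran from chr18:36961608-37790162, 828.555 kb, and held 24 of the 25 members' gene starts and 37 of their 47 transcript starts. In MV+ it spanned 1004.14 kb (chr18:36961700-37965841) and in RAG 1004.16 kb (chr18:36961691-37965852), and in both it held all 25 gene starts and 43 transcript starts. The right edge of the stretch in these 2 lines was the same γ peak.

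By length alone such stretches were not rare. The stretch ranked 382 of 27855 between neighbouring peaks in β-TC3, 534 of 9675 in MV+ and 506 of 13847 in RAG, where the medians were 37.3, 109 and 65.9 kb. By the number of protein-coding gene starts inside, it ranked higher, at 24 in β-TC3 (25 starts), 73 in MV+ (29 starts) and 24 in RAG (29 starts). The protocadherin clusters were therefore among the stretches without peaks that hold the most genes, and the count of starts in them rests on the members themselves.

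The 152.9 kb between the β and γ clusters held 2 peaks in β-TC3 and 0 in MV+ and in RAG. The first, chr18:37790163-37790570, had a pileup of 30 and a fold enrichment of 2.42, lay between genes and was 8149 bp from the start of Slc25a2, a mitochondrial carrier gene. The second, chr18:37803696-37803987, had a pileup of 37 and a fold enrichment of 2.97 and lay 30 bp upstream of the start of Taf7, a subunit of the general transcription factor TFIID. Both were among the lower β-TC3 peaks, with fold enrichments above those of 10.4% and 28.3% of all its peaks.

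The γ cluster (chr18:37833989-38001527, 167.5 kb) held 2 peaks in β-TC3, 1 in MV+ and 1 in RAG. They lay at the starts of Pcdhgc3 and Pcdhgc4, which the annotation lists as transcripts of Pcdhgc5 and which were named here after their values were seen. Both names rest on starts that match RefSeq distances to the base. Of the 10 γ starts, the 6 of the A and B types (Pcdhga3, Pcdhga8, Pcdhga9, Pcdhga11, Pcdhga12 and Pcdhgb6) had no peak within 1 kb in any line.

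At Pcdhgc3 all 3 lines had a peak. In β-TC3 it was chr18:37965795-37966515, 721 bp long, with a pileup of 114 and a fold enrichment of 7.91. In MV+ it was chr18:37965842-37966173, 332 bp long, with a pileup of 52 and a fold enrichment of 3.49. In RAG it was chr18:37965853-37966281, 429 bp long, with a pileup of 48 and a fold enrichment of 4.13. The peak was highest and longest in β-TC3 and nearly level in the other lines, and its −log10 q-value was 60.4, 11.4 and 13.5 in the same order.

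The 3 summits at Pcdhgc3 lay just upstream of the start at 37966064, by 44 bp in β-TC3, 88 bp in MV+ and 101 bp in RAG. Each peak reached into the first exon of Pcdhgc3 (chr18:37966064-37968631), whose coding part begins 138 bases after the start. The summits themselves fell in an intron of the γ transcripts that begin further upstream. The position of the peak relative to the start of Pcdhgc3 was thus alike in the 3 lines, within the length of the peaks.

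Scaled to depth, the pileup at Pcdhgc3 was 1.14 per 1000000 fragments in β-TC3, 0.397 in MV+ and 0.470 in RAG. Among all peaks of its own line the pileup stood at percentile 85.7 in β-TC3, 33.7 in MV+ and 45.4 in RAG, and the fold enrichment at percentile 97.9 in β-TC3, 38.8 in MV+ and 56.5 in RAG. The Pcdhgc3 peak thus ranked higher among the peaks of β-TC3 than among those of the other lines by both measures. At sites that all 3 lines share, β-TC3 pileups on chromosome 18 were themselves raised relative to those on other autosomes, 1.25-fold against RAG and 1.17-fold against MV+ (104 sites on chromosome 18 and 4160 elsewhere), and the part of this in the Pcdhgc3 values was not tested.

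At Pcdhgc4 only the β-TC3 call had a peak, chr18:37974344-37975124, 781 bp long, with a pileup of 70 and a fold enrichment of 5.17. Its summit lay 254 bp after the start at 37974733, in the untranslated part of the first exon, which runs 454 bases before the coding start. The nearest peak to this start was 8.6 kb away in MV+ and 8.5 kb in RAG, and in both it was the one at Pcdhgc3. Pcdhgc5, the last variable exon, starts at 37979200 and had no peak within 1 kb, the nearest lying 4.1 kb away in β-TC3, 13 kb in MV+ and 12.9 kb in RAG. Both γ peaks of β-TC3 remained when each line was held to its 9821 peaks of smallest q-value, as did the Pcdhgc3 peak of the other lines.

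In the whole region, flanks included, there were 16 peaks in β-TC3, 4 in MV+ and 6 in RAG. In β-TC3 11 lay within 1 kb of a transcript start and 5 did not, whereas all 4 in MV+ and all 6 in RAG did. Merged over the lines these made 16 sites, of which 3 were called in all lines, 4 in 2 lines and 9 in β-TC3 alone. No site was called only in MV+ or only in RAG at the authors' threshold. With an equal number of peaks per line the β-TC3 count fell to 6, the MV+ count stayed at 4 and the RAG count was 5, of which 2 had no overlapping β-TC3 peak.

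**Figure D2:**
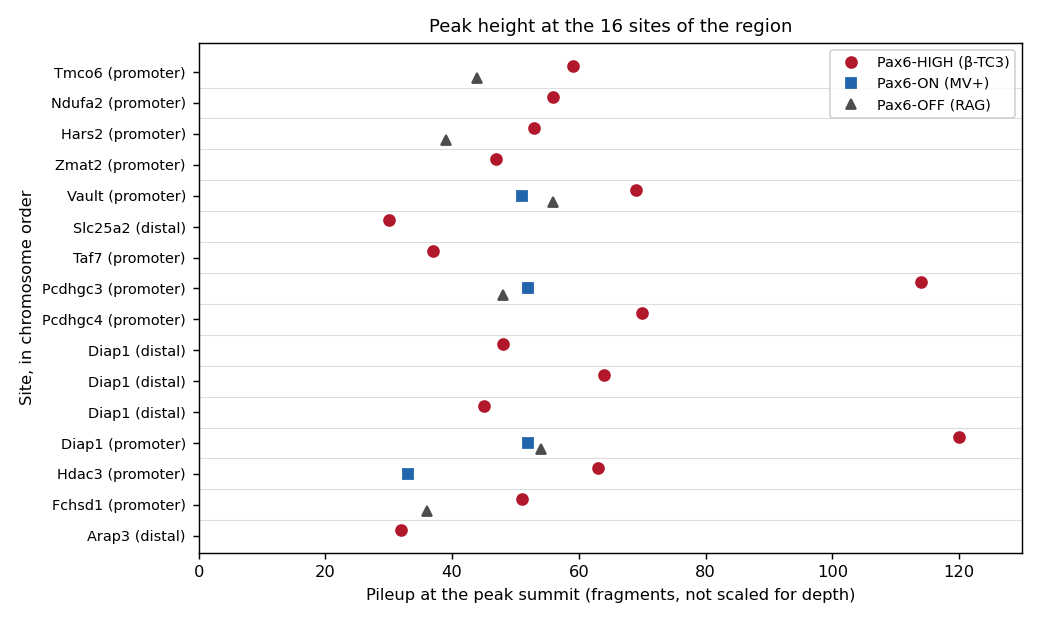
Pileup in fragments (horizontal axis, not scaled for depth) at the 16 sites of the region in chromosome order (vertical axis, named by the nearest start), with 1 point for each line that has a peak there. Pcdhgc3 is 1 of 3 sites with a point in all lines, and Pcdhgc4 has a point in β-TC3 alone.

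The 3 sites common to all lines were Pcdhgc3, the vault RNA gene (chr18:36961270-36961699) and the promoter of Diap1 (chr18:38094785-38095408), a formin that nucleates actin filaments. The pileup at the vault RNA site was 69 in β-TC3, 51 in MV+ and 56 in RAG, and that at Diap1 was 120, 52 and 54. Relative to Diap1 in the same library, the Pcdhgc3 pileup was 0.95, 1 and 0.889, and relative to the vault RNA site it was 1.65, 1.02 and 0.857. Pcdhgc3 thus stood level with or just below the Diap1 promoter in every line, and its height in β-TC3 went together with that of Diap1. Relative to the vault RNA site, Pcdhgc3 stood higher in β-TC3 than in MV+ or RAG, so the picture depends on the site of reference.

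Downstream of the clusters, β-TC3 had distal peaks that neither of the other lines had. Within introns of Diap1 lay chr18:38011807-38012044 (pileup 48, fold enrichment 3.83), chr18:38036864-38037197 (pileup 64, fold enrichment 5.08) and chr18:38039536-38040035 (pileup 45, fold enrichment 3.60). A further peak between genes, chr18:38173584-38173830, had a pileup of 32 and was nearest to Arap3. The first of these lies nearest to the end of the γ cluster, and its summit was 1111 bp from the start of a Diap1 transcript, just beyond the 1 kb limit. No peak of MV+ or RAG lay between the Pcdhgc3 site and the Diap1 promoter.

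Genes that neighbour the members had promoter peaks in all lines. Of 14 protein-coding genes in the flanks, 10 had a promoter peak in β-TC3, 3 in MV+ and 5 in RAG, beside 43.7%, 20.0% and 34.0% of all protein-coding genes. The MV+ and RAG counts were thus near the background. They include Tmco6 and the histidyl-tRNA synthetase genes Hars and Hars2 (β-TC3 and RAG), Ndufa2, Ik and Zmat2 (β-TC3), the histone deacetylase gene Hdac3 and Rell2 (β-TC3 and MV+), and Fchsd1 (β-TC3 and RAG). Of the 4 protein-coding genes between members, Taf7 had a peak in β-TC3 and none did in the other lines.

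Peak density followed this border. From the first to the last member there were 4.39 peaks per Mb in β-TC3, 1.10 in MV+ and 1.10 in RAG, which is 0.403, 0.290 and 0.203 times the density of the whole genome in the same line. In the flanks the density was 30.0, 7.5 and 12.5 peaks per Mb, or 2.75, 1.99 and 2.31 times that of the genome. Flanks and clusters together came to 1.12, 0.807 and 0.846 times the genome, and 1.23, 1.36 and 1.27 times the rest of chromosome 18, so that MV+ and RAG turned from below to above 1. The low density was therefore found over the genes and not over their flanks, with counts of only 4, 1 and 1 peaks behind it.

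All 4 MV+ peaks and all 6 RAG peaks overlapped a β-TC3 peak, whereas 25% of the β-TC3 peaks overlapped one of MV+ and 37.5% one of RAG. Over all peaks the same shares were 57.2% of MV+ and 66.5% of RAG peaks in β-TC3, and 19.8% and 33.0% of β-TC3 peaks in the other lines, so the β-TC3 shares over the region were near those over all peaks. With an equal number of peaks per line, 3 of 5 RAG peaks overlapped one of 6 β-TC3 peaks.

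The starts of the members differed in base composition from most genes. Over the 300 bases from 250 before to 50 after a start, the median GC content was 41.3% at the 47 member starts and 55.3% at all protein-coding gene starts. The CpG observed over expected ratio, a measure of how far CpG has been kept from loss, had a median of 0.450 at the members and 0.534 at all genes. It reached 0.6 at 15 of 47 member starts (31.9%), namely at 7 of 11 α, 5 of 26 β and 3 of 10 γ starts, against 45.2% of all genes. By the share that reached 0.6 the α starts were richest in CpG and the β starts poorest, whereas the median ratio was 0.660 at α, 0.419 at β and 0.404 at γ starts.

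Starts with a high CpG ratio often carry peaks, and few member starts with such a ratio did. Among all gene starts with a ratio of at least 0.6, a peak lay within 1 kb of 75.0% in β-TC3, 35.3% in MV+ and 61.5% in RAG. Among the 15 member starts of that kind, 1 had a peak in each line, and it was Pcdhgc3, with a GC content of 63% and a ratio of 0.875. Apart from Pcdhgc3, Pcdhac1 and Pcdhac2, these starts had a GC content of 36% to 45.3%. The median at all protein-coding gene starts was 55.3%, and the shares above were not matched for GC content. The α starts among the 15, and Pcdhb8, are coding starts, so their windows may not cover the promoter. Pcdhac1 (65.7% GC, ratio 0.651) and Pcdhac2 (72.3% GC, ratio 0.766) were alike or higher in GC content and had no peak in any line. Pcdhgc4, with a peak in β-TC3 alone, had 47.3% GC and a ratio of 0.445, close to the median of the members.

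**Figure D3:**
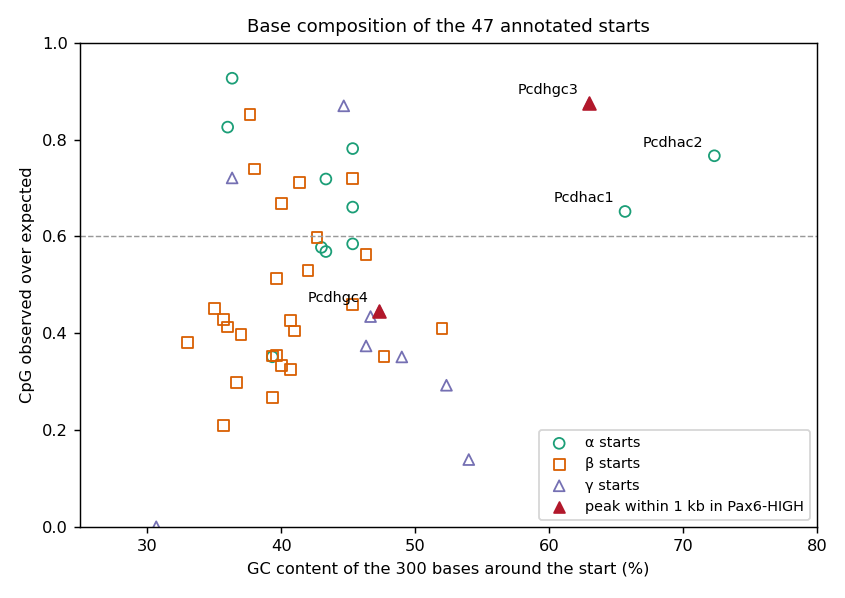
GC content in percent (horizontal axis) against the CpG observed over expected ratio (vertical axis) in 300 bases around each of the 47 annotated α, β and γ starts, with a dashed line at 0.6 and filled red triangles for starts with a peak in β-TC3 (Pax6-HIGH). Pcdhgc3 lies at 63% GC and a ratio of 0.875, near Pcdhac1 and Pcdhac2, which have no peak, while Pcdhgc4 lies among the other starts. The α starts and some β starts are coding starts, so their windows may not cover the promoter.

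The letters CGCT, the core of the conserved protocadherin promoter element, were searched on both strands in the same 300 bases. They occurred at 45 of 47 member starts (95.7%) and at 67.5% of all protein-coding gene starts. Pcdhgc3 had 9 matches, Pcdhac2 had 4, Pcdhac1 had 3 and Pcdhgc4 had 2. A match is a description of these windows only and does not show that the conserved element is present.

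Of the 75-base words within 1 kb of a member start, the median share that occurs once in the genome was 100%, as it was at other gene starts. The lowest was 89.3%, at Pcdha11, while Pcdhac1 and Pcdhac2 were at 100%. The share was at least 90% at 45 of 47 member starts (95.7%) and at 90.2% of 894 protein-coding gene starts taken at even steps through the genome. Over the whole α cluster it was 87.3%, over the β cluster 92.0% and over the γ cluster 98.3%. How the authors treated reads with several placements is not given in the sources used here, and the part of repeated sequence in the missing peaks was not tested.

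Protocadherins outside the clusters, which have the same kind of extracellular domain, had peaks at some starts. Of 12 such genes, 4 had a peak at the gene start in β-TC3, 5 in MV+ and 0 in RAG, beside the backgrounds of 43.7%, 20.0% and 34.0% given above. Pcdh10 had a pileup of 146 in β-TC3 and 71 in MV+, Pcdh17 69 and 67, and Pcdh19 101 and 72. Pcdh20 had a peak in β-TC3 alone (pileup 68), and Pcdh18 (64) and Pcdh7 (54) had one in MV+ alone. Pcdh1, Pcdh11x, Pcdh12 and Pcdh15 had no peak at the start in any line. RAG, which had the Pcdhgc3 peak, thus had no peak at the start of any protocadherin outside the clusters.

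Factors known to bind or silence the clusters mostly had a peak at their own start in β-TC3 and RAG. Of 18 genes found, 16 had a peak in β-TC3, 7 in MV+ and 16 in RAG, beside 43.7%, 20.0% and 34.0% of all protein-coding genes, and 6 had one in all lines. Those with peaks in all lines include the insulator protein Ctcf, with pileups of 91, 37 and 94, the cohesin subunit Rad21, with 127, 61 and 97, and Smchd1, with 181, 73 and 108. Rest, a repressor of neuronal genes, had no peak in β-TC3, a pileup of 43 in MV+ and a pileup of 112 in RAG. Setdb1, a histone H3 lysine methyltransferase, had a peak in β-TC3 alone, and the cohesin subunit Stag1 had none in any line. The DNA methyltransferases Dnmt1, Dnmt3a and Dnmt3b, the cohesin loader Nipbl and the cohesin subunits Smc1a and Stag2 had peaks in β-TC3 and RAG and lacked one in MV+.

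**Figure D4:**
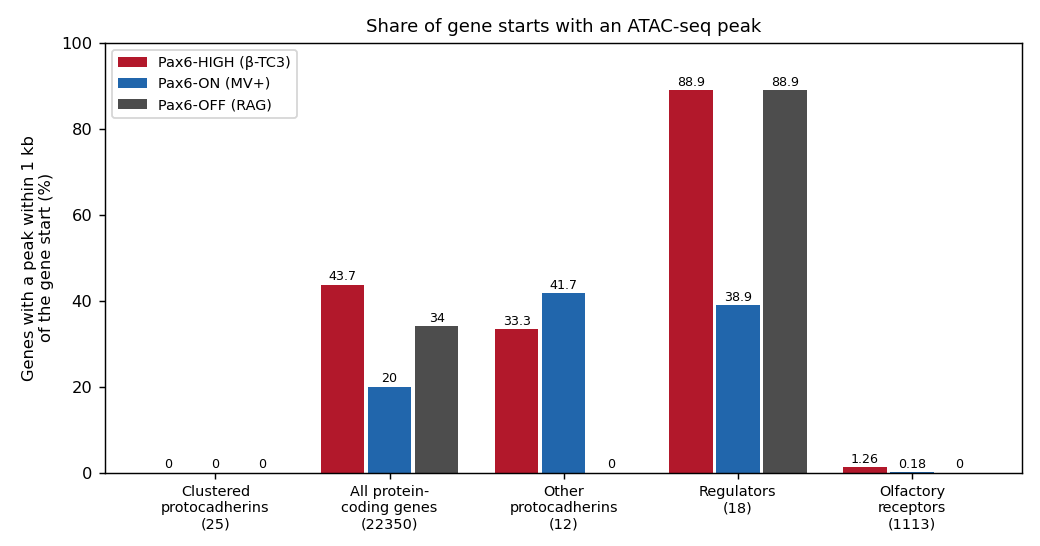
Share of genes in percent with a peak within 1 kb of the gene start (vertical axis) in β-TC3, MV+ and RAG cells, for the 25 clustered protocadherins and 4 other sets with their number of genes in brackets. The clustered protocadherins are at 0% in each line, against 43.7, 20.0 and 34.0% of all protein-coding genes. The gene start used for Pcdhgc5 is that of Pcdhga3, and with every annotated start 1 of 25 genes had a peak in each line. Of the families added after the values were seen, only the olfactory receptors are drawn.

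Other clustered gene families were added after the values were seen, as a scale for the members. Of 1113 olfactory receptor genes, which are expressed singly by neurons, 14 had a peak at the start in β-TC3, 2 in MV+ and 0 in RAG. Of 67 histone genes, 55, 8 and 34 had one. Of 40 Hox genes the numbers were 2, 0 and 8. By gene start the clustered protocadherins had 0 of 25 in each line. This was nearer to the olfactory receptors (1.26, 0.18 and 0%) than to the histone genes (82.1, 11.9 and 50.7%). The comparison depends on the annotation, in which 22 of the 25 genes are β genes. It leaves out the Pcdhgc3 peak of every line, since the gene start used for Pcdhgc5 is that of Pcdhga3. By annotated start the members had 2 of 47 in β-TC3, 1 of 47 in MV+ and 1 of 47 in RAG. The Hox genes were at 5, 0 and 20%. What lies behind these shares was not tested.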

How the data were processed

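ATAC-seq was done in duplicate on each line. Per the labels, the authors' notes name Trim Galore 0.4.1, Bowtie2 2.2.6, SAMtools 1.6, bedtools and MACS2 2.1.1, with mm9. Per the file headers, peaks were called on both replicates together, without a control, on whole fragments, with duplicates kept, at a q-value of 0.05. The deposited pileup is a signal (fragments at the summit), the deposited fold enrichment is a ratio to the larger of the genome and local background, and the deposited p- and q-values are −log10 values. No control library corrects for copy number or mappability.

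The peaks were overlapped (1 bp or more) with GENCODE M1 on NCBIM37, the assembly of mm9, in Python 3.11.15 with pandas 2.3.3, numpy 2.4.6 and pysam 0.24.0. A promoter was 1 kb on either side of a gene start. The counting was tested on simulated data. Named genes were members with a peak, genes with a promoter peak in the region, and on the other lists genes without a peak in at least 1 line (at most 10 a list by name); Ctcf, Rad21 and Smchd1 were named after their values were seen. Members and lists were chosen with earlier results of these data known. Alternatives were stricter q-values, an equal number of peaks, and other flanks, windows, starts and overlaps. Sequences of this chromosome and single values of some listed genes are not reported here.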

Additional observations from a re-analysis of the deposited data

How the results depend on the processing

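The absence of peaks at the gene starts of clustered protocadherins held in all lines under q-values below 0.01 and 0.001, an equal number of peaks and windows of 500 bp and 2 kb. With every annotated transcript start the count became 1 gene in each of the 3 lines, which is Pcdhgc5. For protocadherins outside the clusters, the 2 kb window raised the count from 4 to 6 in β-TC3 and from 5 to 6 in MV+. In RAG it stayed at 0. The number of peaks in the region depends on the flank. It was 4, 1 and 1 (β-TC3, MV+, RAG) with no flank, 8, 2 and 2 with 100 kb and 35, 8 and 13 with 500 kb. With 9821 peaks in every line it was 6 in β-TC3, and 2 of these lay between the first and the last member (an alternative added after the data were seen, as were the same settings for single starts). Peak density relative to the rest of chromosome 18 was 1.36 in MV+ and 1.27 in RAG, on the other side of 1 from the value relative to the genome. Peaks shared by β-TC3 and MV+ fell to 2 of either line when 50% of both had to overlap. Those shared by β-TC3 and RAG fell to 3 of either line with an equal number of peaks. Of the values that answer a comparison, 19 were classed as moved under an alternative and 65 as the same. The 65 include smaller changes, such as the one from 4 to 6 for protocadherins outside the clusters in β-TC3. No paired analysis was possible because the replicates were pooled in 1 call per line; leaving one out was likewise not run. The lowest callable pileup, 25 to 30 fragments, limits what a missing peak shows.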
